A study of Mus musculus with 5 samples.

Results

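The genes described here are 44 lysosomal genes of the mouse, namely acid proteases, glycosidases, sulfatases, lipid hydrolases and lipid transfer proteins, membrane proteins, subunits of the proton pump and regulators. They were chosen by name from a list of cathepsins, other hydrolases, membrane proteins, V-ATPase subunits and members of the TFEB family. Names, not a threshold on measured values, set the list, but earlier results of these data were known when it was drawn up. All 44 were found among the 56941 genes of the count table and among the 19713 genes tested. RNA was sequenced from the iridocorneal angle, the ring of tissue between iris and cornea through which aqueous humor leaves the eye, in 3 DBA/2J pools and 2 Gpnmb+ pools. DBA/2J mice develop pigmentary glaucoma and carry a premature stop allele of Gpnmb together with the Tyrp1 b allele. Gpnmb+ mice carry a functional Gpnmb allele on the DBA/2J background and share the Tyrp1 b allele. The labels give an age of 12 months, both sexes and no treatment for all pools. A pool was described as the angle tissue of 3 mice, although the library names list 3 animals for each DBA/2J pool and 2 for each Gpnmb+ pool. The dissected ring keeps remnants of iris and ciliary body, so each value is an average over several mice and several cell types. The question addressed is whether RNA of the lysosomal system differed between the strains.

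The lysosome is the acidic organelle in which cells degrade material taken up by endocytosis and phagocytosis or delivered by autophagy. A proton pump in its membrane, the V-ATPase, lowers the pH at which soluble hydrolases cut proteins, glycans and lipids, and transcription factors of the TFEB family can raise many of these genes together through an E-box motif near their start sites. Cells of the trabecular meshwork, the filter of the angle, and resident macrophages both take up debris and pigment, and GPNMB is a transmembrane glycoprotein of melanosomes and phagocytic compartments.

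The E-box CACGTG, which reads the same on both strands, is the core of the element through which TFEB and TFE3 act. It was searched on both strands in windows from 250 bases before to 50 bases after the canonical start site. It was present in the windows of 13 of 44 members (29.5%), in 26 of 133 other lysosomal and autophagy genes (19.5%), and in 9.15% of the 15916 windows of tested protein-coding genes. The longer form TCACGTGA, which contains the first motif, was present in 4 members (9.09%), in 12 of the other listed genes (9.02%) and in 1.39% of all windows. The 13 members held 20 copies of CACGTG, and 5 of them held more than 1. Lamp1 had 4 copies, of which 1 begins 5 bases before its start site. Of the members with the smallest p-values below, Ctsd, Gaa, Gla and Atp6v1a held the motif, whereas Gusb, Psap, Tpp1 and Man2b1 did not. Neither Tfeb nor Grn nor Tfe3 held it. The 3 stretches below are those members in which every copy lies before the start site and outside annotated exons with 25 flanking bases, and the capitals mark CACGTG. They are shown because they place the motif beside genes whose values follow. The letters are those of the GRCm39 reference genome and not of the DBA/2J strain.
Ctsd, chr7:141941779-141941834, minus strand, positions -59 to -4 from the start site: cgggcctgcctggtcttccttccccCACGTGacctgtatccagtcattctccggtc
Glb1, chr9:114230073-114230128, plus strand, positions -71 to -16: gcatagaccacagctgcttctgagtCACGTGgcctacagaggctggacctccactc
Gaa, chr11:119158624-119158679, plus strand, positions -89 to -34: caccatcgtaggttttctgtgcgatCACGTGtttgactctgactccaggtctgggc
A match describes these letters only and is not evidence of a bound site.

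Counts assigned to genes summed to 43900661 to 49837758 per pool. Gpnmb itself, mutant in DBA/2J, had counts of 2042, 2234 and 1946 in DBA/2J against 129659 and 110568 in the Gpnmb+ pools (log2 fold change -5.67, standard error 0.139, adjusted p = 0.000231, by the quasi-likelihood test of edgeR, Benjamini-Hochberg adjusted over all genes tested). Markers of the angle and trabecular meshwork were all detected (7 of 7), and so were all 6 markers of the corneal epithelium. Although both strains were described as including males, the Y-linked gene Ddx3y had 0 and 4 counts in the Gpnmb+ pools and 1567 to 4168 in the DBA/2J pools. Xist, the RNA of the inactive X chromosome, had 7843 and 9152 counts in the Gpnmb+ pools and 596, 0 and 2417 in DBA/2J pools 1, 2 and 3. The sex of the mice in a pool and the genotype therefore cannot be told apart in any value below.

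No lysosomal gene passed the threshold for a difference between the strains, but most lay slightly above 0. A call required a fold change of 1.5 or more and an adjusted p-value up to 0.05. Of the 44 members 0 were called, where 0.796% of all tested genes were, and the same held without the fold minimum, where again 0.796% of all genes passed. Limma-voom also called 0 members, as did DESeq2 with the fold minimum, by which 5.21% of the genes with a DESeq2 adjusted p-value were called. The smallest adjusted p-value of any member was 0.136, for Gusb, by the edgeR fit, Benjamini-Hochberg adjusted. With an unadjusted p-value up to 0.05 and a 1.5-fold change 0 members passed, beside 8.67% of all genes, and 16 passed without the fold minimum.

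Log2 fold changes, which are positive where DBA/2J was higher, were above 0 in 39 of 44 members (88.6%), beside 47.4% of all genes, and in 37 when library totals set the scale. They ran from -0.20 for Idua to 0.54 for Ctsd, a 1.45-fold difference and so below the fold minimum. Their median was 0.19, a fold of 1.14, beside -0.02 over all genes. Members are abundant genes, and the 10115 genes whose mean level was at or above that of the lowest member had a median of 0.01, with 51.0% above 0. Without a fold minimum, 16 members (36.4%) had an unadjusted p-value up to 0.05 in edgeR and were higher in DBA/2J, beside 8.31% of all genes and 11.0% of those 10115. In the other direction 0 members passed, beside 7.60% of all genes. The 16 was sensitive to single libraries. It came to 8, 5 and 13 without DBA/2J pool 1, 2 or 3, and to 7 and 4 without Gpnmb+ pool 1 or 2, with 1 fewer library in each fit. In these fits the same rule passed 6.92%, 6.97%, 6.73%, 8.54% and 5.85% of all genes, so that the 4 of 44 without Gpnmb+ pool 2 stood near the background. It came to 8 when library totals replaced the trimmed mean scaling, beside 6.72% of all genes. By DESeq2's adjusted p-value without a fold minimum 4 members passed, namely Gusb (0.00685), Psap (0.0153), Ctsd (0.0178) and Atp6v1a (0.0250), beside 7.71% of all genes that DESeq2 gave an adjusted p-value.

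The pools of the strains did not overlap for 24 members (54.5%), all with DBA/2J higher, beside 17.3% of all genes and 21.8% of the genes at or above the lowest member. No member had every DBA/2J pool below both Gpnmb+ pools, beside 17.2% of all genes, although 2 did when library totals set the scale. DBA/2J pools 1, 2 and 3 each lay above both Gpnmb+ pools for 31, 38 and 26 members, beside 36.1%, 32.3% and 34.3% of all genes. They lay below both for 4, 3 and 7 members, beside 37.6%, 35.7% and 36.4% of all genes. DBA/2J pool 2 was the highest of the 5 pools for 27 members, pool 1 for 9 and pool 3 for 3. The lowest was Gpnmb+ pool 1 for 18 members and Gpnmb+ pool 2 for 16. The median member differed by 0.05 to 0.11 (log2) between pairs of DBA/2J pools and by less than 0.01 between the Gpnmb+ pools, and by 0.12 to 0.26 between a DBA/2J and a Gpnmb+ pool.

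**Figure D1:**
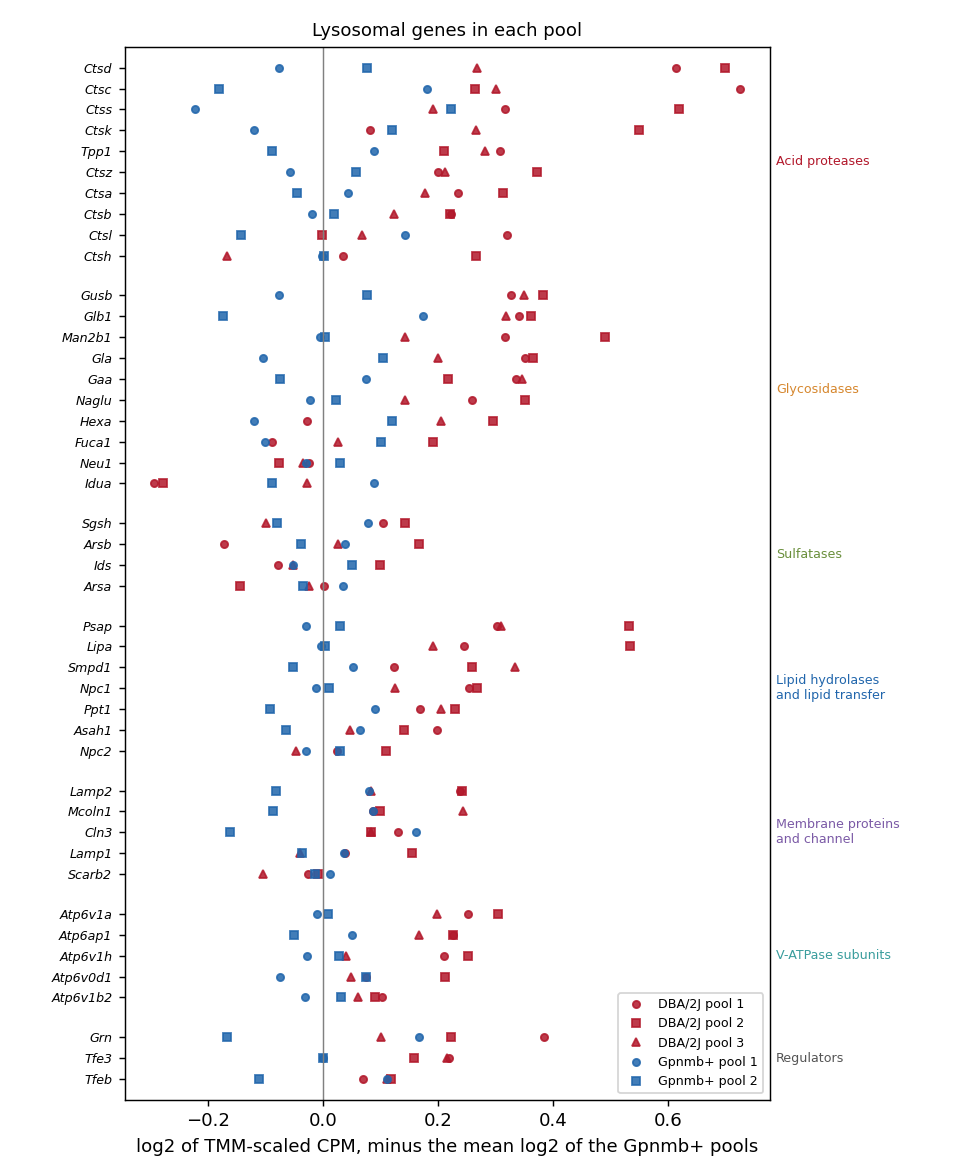
Level of each of the 44 genes in each pool, as log2 of counts scaled to library size minus the mean log2 level of the Gpnmb+ pools, ordered by role and by fold change. Red symbols are the 3 DBA/2J pools and blue symbols the 2 Gpnmb+ pools, and for 24 genes every red symbol lies to the right of both blue ones.

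The depth behind these values was high, with 431 to 137028 counts per member and pool, and standard errors of the log2 fold changes ran from 0.0762 to 0.192. The 95% interval of the fold change stayed within 1.5-fold in either direction for 36 members (81.8%), beside 42.6% of all genes and 71.5% of the genes at or above the lowest member. For these 36 a difference of 1.5-fold or more lay outside the interval. The widest upper bound was a log2 fold change of 0.92, for Ctsd, and the lowest lower bound was -0.54, for Idua. The intervals of the other 8 (Ctsc, Ctsd, Ctsk, Ctss, Glb1, Man2b1, Lipa and Psap) reached past 1.5-fold on the higher side.

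**Figure D2:**
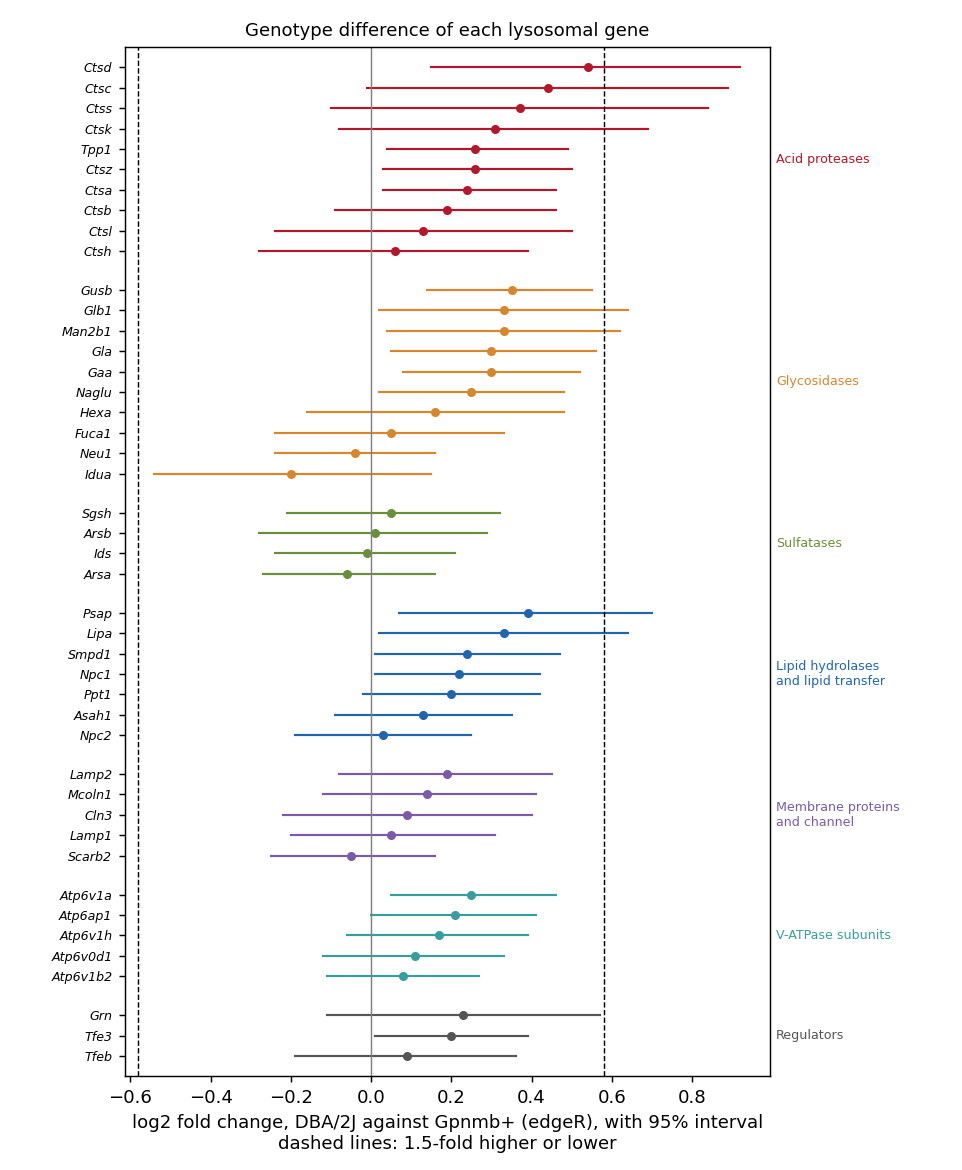
Log2 fold change of DBA/2J against Gpnmb+ for each member by edgeR (points) with its 95% interval (lines), ordered by role, with dashed lines at 1.5-fold. The intervals of 36 members lie between the dashed lines, and 16 lie wholly above 0.

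Summed over the 44 members, read counts scaled to library size (CPM, with trimmed mean of M-values factors) came to 17371, 18252 and 16208 in DBA/2J, against 14603 and 14691 in Gpnmb+. All DBA/2J pools lay above both Gpnmb+ pools. The DBA/2J mean was 17277 ± 1025 (SD, n = 3) and the Gpnmb+ mean 14647 ± 62.0 (SD, n = 2), a difference of 18%, while the sum over all tested genes was 2.69% higher in DBA/2J. The exact two-sided permutation test gave p = 0.2, the smallest value 3 pools against 2 allow. Without the 5 members of highest summed level, the sums were 7690, 8055 and 7315 against 6952 and 6742, a difference of 12.3%. In tissue RNA, fewer cells of a type and less RNA per cell cannot be told apart.

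Per length of exon sequence, Psap was the most abundant member, with a length-scaled level of 3732 ± 276 TPM (SD, n = 3) in DBA/2J against 2912 ± 57.1 TPM (SD, n = 2) in Gpnmb+. Ctsb and Ctsd followed. Ctsd had 1643 ± 183 TPM (SD, n = 3) in DBA/2J, where Ctsb had 1540 ± 10.9, within the spread of Ctsd. In Gpnmb+ Ctsd had 1157 ± 76.8 TPM (SD, n = 2), below the 1376 ± 14.2 of Ctsb. Over all pools, Ctss and Ctsl came next, with 950 and 854 TPM, then Lamp1 with 659 and Grn with 354. The transcription factors lay near the other end. Tfe3 had 21.1 TPM, Mcoln1 12.8, Cln3 12.4 and Tfeb 10.3, and Idua was lowest at 6.7. Cln3 and Mcoln1 did not differ from each other beyond their spread (12.6 ± 0.504 and 13.2 ± 1.4 in DBA/2J, SD, n = 3). Psap exceeded all but 0.0969% of tested genes, and Idua all but 56.7%.

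The acid proteases cut proteins inside the lysosome, and all 10 had a log2 fold change above 0 (median 0.26). Of these 6 had pools that did not overlap, beside 17.3% of all genes separated with DBA/2J higher. In edgeR 4 of the 10 were higher with an unadjusted p-value up to 0.05, beside 8.31% of all genes. Summed, they had 8474, 8573 and 7552 CPM in DBA/2J and 6766 and 6932 CPM in Gpnmb+, without overlap. Ctsd encodes cathepsin D, the main aspartic protease of the lysosome (ENSMUSG00000007891, chromosome 7, 141929646 to 141941775, minus strand). It had 1161, 1232 and 914 CPM in DBA/2J and 720 and 801 CPM in Gpnmb+. All DBA/2J pools were higher, and DBA/2J pool 3 stood nearest to the Gpnmb+ pools. Its log2 fold change reached 0.54 (standard error 0.157, 95% interval 0.15 to 0.92, adjusted p = 0.185 by the edgeR fit, Benjamini-Hochberg adjusted). Tpp1 encodes tripeptidyl peptidase, which removes tripeptides from protein ends (ENSMUSG00000030894, chromosome 7, 105394018 to 105401481, minus strand). It had 171, 160 and 168 CPM against 147 and 130, also without overlap. Its log2 fold change reached 0.26 (standard error 0.0921, adjusted p = 0.256 in the same edgeR fit).

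Ctss, the cysteine cathepsin S of antigen-presenting cells, had 1269, 1566 and 1165 CPM in DBA/2J and 874 and 1190 CPM in Gpnmb+. The groups overlapped, since Gpnmb+ pool 2 lay above DBA/2J pool 3, and the log2 fold change of 0.37 had the largest standard error of any member (0.192). It was 0.17 without Gpnmb+ pool 1, 0.24 without DBA/2J pool 2 and 0.61 without Gpnmb+ pool 2. Ctsk, a collagen-degrading cathepsin, had 146 to 202 CPM in DBA/2J against 127 and 150, again with overlap. Ctsc, which activates serine proteases of immune cells, had 337, 245 and 251 CPM against 231 and 180. Its pools did not overlap, and its log2 fold change was 0.44 with an interval from -0.01 to 0.89, and 0.27 without DBA/2J pool 1 or without Gpnmb+ pool 2. Ctsb, among the most abundant cathepsins, had 2922, 2921 and 2729 CPM against 2472 and 2540, with a log2 fold change of 0.19. Ctsa, the protective protein of neuraminidase and beta-galactosidase, and Ctsz, a carboxypeptidase, had log2 fold changes of 0.24 and 0.26 with pools that did not overlap. Ctsl (0.13) and Ctsh (0.06) overlapped, and the sign of each turned in a fit without 1 pool.

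The glycosidases trim sugar chains from glycoproteins, glycolipids and glycosaminoglycans, and 8 of 10 had a log2 fold change above 0 (median 0.28). In edgeR 6 of the 10 (60%) were higher with an unadjusted p-value up to 0.05, beside 8.31% of all genes. The share was 57.1% for the 7 lipid genes below. Summed levels of the glycosidases, 962, 1070 and 984 CPM in DBA/2J, lay above the 833 and 893 CPM in Gpnmb+. Gusb encodes beta-glucuronidase, which acts on glycosaminoglycans (ENSMUSG00000025534, chromosome 5, 130017852 to 130031903, minus strand). It had 126, 131 and 128 CPM in DBA/2J and 95.3 and 106 CPM in Gpnmb+. The DBA/2J pools lay close together and above both Gpnmb+ pools. The log2 fold change was 0.35 (standard error 0.0846, 95% interval 0.14 to 0.55), with the smallest p-value of any member (unadjusted p = 0.00613 and adjusted p = 0.136 in the edgeR fit, Benjamini-Hochberg adjusted).

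Gaa encodes acid alpha-glucosidase, which degrades lysosomal glycogen (ENSMUSG00000025579, chromosome 11, 119158708 to 119176525, plus strand). It had 127, 117 and 128 CPM in DBA/2J against 106 and 95.6 in Gpnmb+, without overlap (log2 fold change 0.30, standard error 0.0893, adjusted p = 0.194 in the edgeR fit). Gla, the X-linked alpha-galactosidase of glycolipids (ENSMUSG00000031266, chromosome X, 133488891 to 133501904, minus strand), had 44.4, 44.8 and 40.0 CPM against 32.4 and 37.4. These groups also did not overlap (log2 fold change 0.30, standard error 0.105, adjusted p = 0.251 in the edgeR fit). Man2b1, the lysosomal alpha-mannosidase (ENSMUSG00000005142, chromosome 8, 85809885 to 85825361, plus strand), had 211, 238 and 187 CPM against 169 and 170. DBA/2J pool 2 was highest, and the groups did not overlap (log2 fold change 0.33, standard error 0.119, adjusted p = 0.269 in the edgeR fit). Glb1, beta-galactosidase, and Naglu, an enzyme of heparan sulfate breakdown, had log2 fold changes of 0.33 and 0.25 with pools that did not overlap, and Glb1 ran from 0.17 without Gpnmb+ pool 2 to 0.52 without Gpnmb+ pool 1. Hexa, a subunit of beta-hexosaminidase (0.16), and Fuca1, the alpha-fucosidase (0.05), overlapped. Neu1, the lysosomal neuraminidase, was at 31.4, 30.3 and 31.2 CPM against 31.3 and 32.6. Idua, the alpha-iduronidase, had the lowest fold change of all, with 9.9, 10 and 11.9 CPM against 12.9 and 11.4 and overlapping pools (log2 fold change -0.20, interval -0.54 to 0.15).

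The 4 sulfatases, which take sulfate groups from glycosaminoglycans and sulfatide, lay around 0. Sgsh, Ids, Arsa and Arsb had log2 fold changes of 0.05, -0.01, -0.06 and 0.01. None of the 4 had separated pools, beside 17.3% of all genes separated with DBA/2J higher and 17.2% with DBA/2J lower. Summed, the sulfatases had 343, 388 and 354 CPM in DBA/2J and 363 and 362 CPM in Gpnmb+, so the groups overlapped. The mean difference was -0.191%, and all 4 intervals lay between -0.28 and 0.32 on the log2 scale. The signs of Sgsh, Ids and Arsb turned in at least 1 alternative fit. Whether the sulfatases differed from the other hydrolases was not tested.

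Genes of lipid breakdown and lipid export all had log2 fold changes above 0 (7 of 7, median 0.22). Pools were separated with DBA/2J higher for 5 of the 7, beside 17.3% of all genes. Sums over the 7 were 3988, 4562 and 3973 CPM in DBA/2J and 3319 and 3376 CPM in Gpnmb+. Psap encodes prosaposin, the precursor of the saposins that present glycolipids to their hydrolases (ENSMUSG00000004207, chromosome 10, 60113431 to 60138380, plus strand). It had 2721, 3192 and 2735 CPM in DBA/2J and 2163 and 2252 CPM in Gpnmb+. DBA/2J pool 2 was highest, and both other DBA/2J pools also lay above the Gpnmb+ pools. The log2 fold change of Psap was 0.39 (standard error 0.13, 95% interval 0.07 to 0.70, adjusted p = 0.242 by the edgeR fit, Benjamini-Hochberg adjusted). Lipa, the acid lipase of cholesteryl esters, had 298, 364 and 287 CPM against 251 and 252 (log2 fold change 0.33), without overlap. Smpd1, the acid sphingomyelinase, Npc1, the membrane exporter of cholesterol, and Ppt1, which removes palmitate from proteins, had log2 fold changes of 0.24, 0.22 and 0.20, each with separated pools. Npc2, the soluble cholesterol carrier, had 329, 349 and 313 CPM against 317 and 330, and overlapped. Asah1, the acid ceramidase, had a log2 fold change of 0.13 and overlapped as well.

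Of the 5 membrane proteins 4 had log2 fold changes above 0 (median 0.09), and 2 had separated pools, beside 17.3% of all genes. Their summed levels, 2004, 2080 and 1862 CPM against 1928 and 1797, overlapped, since DBA/2J pool 3 lay between the Gpnmb+ pools (exact permutation p = 0.4). Lamp1, the most abundant lysosomal membrane glycoprotein, had 828, 897 and 784 CPM against 827 and 786, a log2 fold change of 0.05 with an interval from -0.20 to 0.31. Lamp2, its X-linked relative that also serves chaperone-mediated autophagy, had 811, 813 and 728 CPM against 727 and 650. The Lamp2 pools were separated by a narrow margin, and its log2 fold change was 0.19. Scarb2, the receptor that carries glucocerebrosidase to the lysosome, had a log2 fold change of -0.05. Mcoln1, the calcium channel of the lysosome (0.14, pools separated), and Cln3, a membrane protein lost in juvenile Batten disease (0.09, pools overlapping), were both low in level.

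All 5 V-ATPase subunits had log2 fold changes above 0 (median 0.17), and 4 had separated pools, beside 17.3% of all genes. Atp6v1a encodes the catalytic subunit that hydrolyzes ATP (ENSMUSG00000052459, chromosome 16, 43887852 to 43960076, minus strand). It had 355, 368 and 342 CPM in DBA/2J against 296 and 300 in Gpnmb+. The groups did not overlap, and the spread within each was small beside the distance between them (log2 fold change 0.25, standard error 0.0844, adjusted p = 0.239 in the edgeR fit with Benjamini-Hochberg adjustment). Atp6ap1, an accessory subunit encoded on the X chromosome, had 322, 322 and 309 CPM against 285 and 266 (log2 fold change 0.21). Atp6v1h, a regulatory subunit of the cytosolic part, and Atp6v1b2, its nucleotide-binding B subunit, had log2 fold changes of 0.17 and 0.08 with separated pools. Atp6v0d1, a subunit of the membrane part, overlapped at 0.11.

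Of the regulators, Tfeb (ENSMUSG00000023990, chromosome 17, 48047837 to 48103348, plus strand) encodes the transcription factor best known for driving lysosomal genes. It had 17.1, 17.7 and 17.6 CPM in DBA/2J and 17.6 and 15.1 CPM in Gpnmb+. The groups overlapped, with Gpnmb+ pool 1 at the level of the DBA/2J pools. Its log2 fold change was 0.09 (standard error 0.113, 95% interval -0.19 to 0.36, adjusted p = 0.755 in the edgeR fit), and it became -0.02 without Gpnmb+ pool 2. Tfe3, a related factor (ENSMUSG00000000134, chromosome X, 7628761 to 7641444, plus strand), had 50.4, 48.3 and 50.3 CPM against 43.3 and 43.3. Its groups did not overlap, and its standard error was the smallest of any member (log2 fold change 0.20, standard error 0.0762, 95% interval 0.01 to 0.39, adjusted p = 0.286 in the edgeR fit). Grn encodes progranulin, a secreted protein that reaches the lysosome and is needed for its enzymes (ENSMUSG00000034708, chromosome 11, 102321141 to 102327874, plus strand). It had 388, 347 and 319 CPM against 334 and 265. DBA/2J pool 3 lay below Gpnmb+ pool 1, so the groups overlapped (log2 fold change 0.23, standard error 0.14, adjusted p = 0.475 in the edgeR fit). It ran from 0.08 without Gpnmb+ pool 2 to 0.41 without Gpnmb+ pool 1. These are levels of RNA, and TFEB and TFE3 are regulated largely by moving their protein into the nucleus, which RNA counts do not show.

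Because the pools differed in sex-linked RNA, the X-linked members were also taken apart. The 5 of them (Lamp2, Gla, Ids, Atp6ap1 and Tfe3) had a median log2 fold change of 0.20, and the 39 autosomal members 0.19. The 643 tested genes of the X chromosome had a median of 0.03. Of the autosomal members 35 were above 0, and of the X-linked members 4. Genes of either kind could differ with sex, so this split cannot tell sex from genotype.

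Some members share exon sequence with a neighbour on the opposite strand, and the strand used in counting was not stated. Lamp1 shares 49.2% of its exon length with Grtp1, Grn 32.8% with Fam171a2, Ctsz 29.2% with Nelfcd, Ctsa 24.3% with Pltp and Gusb 11.9% with Vkorc1l1. Pltp is expressed here, with counts that amount to 61.7% of those of Ctsa, so the Ctsa value is uncertain. The count of Vkorc1l1 was 45.7% of that of Gusb. Glb1 shares 4.21% of its exon length with Tmppe on its own strand.

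Outside the 44 members, 133 of 135 other genes of the lysosome and of autophagy were tested. By edgeR 0 were called, beside 0.796% of all genes. Among them 22 had an unadjusted p-value up to 0.05, 18 higher (13.5%) and 4 lower (3.01%), beside 8.31% and 7.60% of all genes. DESeq2 called 1 of them, beside 5.21% of all genes. Log2 fold changes were above 0 for 82 of 133, and their median was 0.07. Of 28 other lysosomal enzymes 22 were above 0 (median 0.11). The smallest p-value in that list was that of Ctsf, another cysteine cathepsin, which had 65.6, 79.7 and 79.9 CPM against 56.9 and 54.4 (log2 fold change 0.43, adjusted p = 0.156 in the edgeR fit). Of 23 other membrane proteins and transporters 16 were above 0 (median 0.10). Laptm4b, a small lysosomal membrane protein, had the smallest adjusted p-value of all these lists. Its levels were 224, 222 and 225 CPM against 172 and 152, without overlap (log2 fold change 0.47, adjusted p = 0.0867 in the edgeR fit).

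Among the 19 other V-ATPase subunits tested, the median was 0.20 and 13 were above 0. In edgeR 6 (31.6%) were higher and 1 (5.26%) lower with an unadjusted p-value up to 0.05, beside 8.31% and 7.60% of all genes. Of these 6, Atp6v0a4, Atp6v1b1 and Atp6v1e2 had 45 counts or fewer in every pool. Atp6v0c, the proton-binding ring subunit, had 35.9, 37.6 and 35.1 CPM against 26.9 and 31.2 (log2 fold change 0.32, adjusted p = 0.221 in the edgeR fit). The list reached from -0.89 for Atp6v1c2 to 1.49 for Atp6v0a4, both at levels of 1.33 CPM or less. Of the 16 genes of lysosomal delivery and enzyme maturation 11 were above 0 (median 0.10). Sort1, a sorting receptor, had 234, 262 and 260 CPM against 193 and 207 (log2 fold change 0.33, adjusted p = 0.176 in the edgeR fit). The 16 genes of the MiT family and of nutrient signalling had a median of 0.04, and Rragb, a GTPase of amino acid sensing, had 12.6, 14.1 and 12.6 CPM against 8.12 and 10.2 (log2 fold change 0.51, adjusted p = 0.183 in the edgeR fit).

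Of the 24 autophagy genes tested, 7 were above 0 and 17 below, with a median of -0.07. Their summed level overlapped between the strains, at 2447, 2616 and 2529 CPM against 2524 and 2610. Rb1cc1, a subunit of the kinase complex that starts autophagosomes, had 83.4, 92.3 and 89.8 CPM in DBA/2J and 107 and 106 CPM in Gpnmb+ (log2 fold change -0.27, adjusted p = 0.202 in the edgeR fit). The 7 cathepsin inhibitors had a median of -0.39, from -1.53 to 0.36, with 3 above 0 and 4 below. Their summed level was 10.8% higher in DBA/2J, although the pools overlapped. Its mean was 1122 ± 118 CPM (SD, n = 3) in DBA/2J and 1013 ± 71.1 CPM (SD, n = 2) in Gpnmb+. Cst3, the most abundant of them, had a mean of 916 CPM in DBA/2J against 789 in Gpnmb+, with overlap (log2 fold change 0.22). Cst6, a cystatin also made by epithelia, had 2.32, 2.03 and 2.26 CPM against 3.73 and 5.03 (log2 fold change -0.99, adjusted p = 0.104 in the edgeR fit), and it is the gene that DESeq2 called (adjusted p = 0.006). The difference between these lists and the members was not tested.

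**Figure D3:**
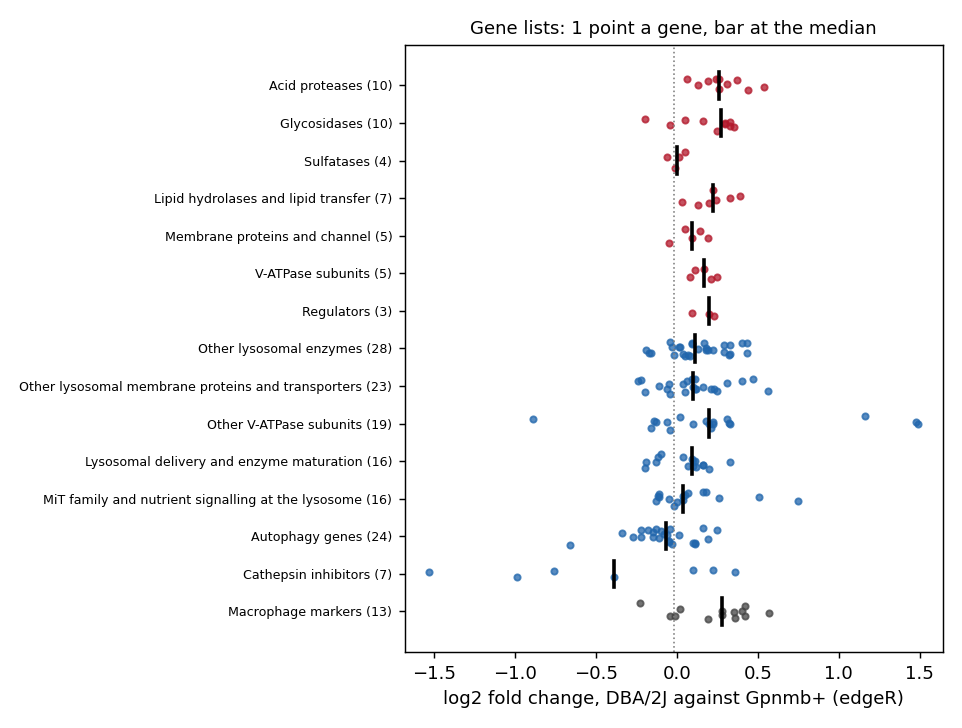
Log2 fold change of DBA/2J against Gpnmb+ for every tested gene of 15 lists, 1 point a gene, with a bar at each median and the number of genes in parentheses. Red lists hold the 44 members, blue lists other genes of the pathway and the dark list macrophage markers, and the dotted line is the median of all genes, -0.02.

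Macrophages are rich in lysosomes, and the level of their markers varied between pools. Of 13 macrophage markers 10 had log2 fold changes above 0 (median 0.28) and 0 were called by edgeR, beside 0.796% of all genes. In the same fit 3 of the markers were higher with an unadjusted p-value up to 0.05, beside 8.31% of all genes. Summed, the 13 markers reached 1860, 2006 and 1407 CPM in DBA/2J against 1497 and 1397 CPM in Gpnmb+, so the groups overlapped. The mean of this sum was nevertheless 21.5% higher in DBA/2J, where the summed members were 18% higher. DBA/2J pool 3, whose marker sum lay between those of the Gpnmb+ pools, had a summed member level of 16208 CPM against 14603 and 14691, and its median member lay 0.13 (log2) above the mean of the Gpnmb+ pools. The same median was 0.20 for DBA/2J pool 1 and 0.22 for pool 2, the pools with more macrophage marker RNA. Sex-linked RNA went with the same order of DBA/2J pools. Ddx3y had 81.2, 97.1 and 35.1 CPM in DBA/2J pools 1, 2 and 3 against 0 and 0.0818 in Gpnmb+. Xist ran the other way, with 13.4, 0 and 54.2 CPM against 155 and 187. Macrophage content and sex therefore cannot be told apart in this order. Mpeg1, the most abundant of these markers, had 798, 1023 and 625 CPM against 619 and 723. The defining markers Csf1r (183, 187 and 134 against 161 and 116 CPM) and Adgre1 (82.1, 80.8 and 56.8 against 94.3 and 56.0 CPM) were detected in every pool and overlapped. Pools were separated and higher in DBA/2J for 4 of the 13 markers, beside 17.3% of all genes. The complement genes C1qa (173, 158 and 129 against 124 and 104 CPM) and C1qc (143, 133 and 105 against 103 and 86.2 CPM) had log2 fold changes of 0.42 each. Lyve1 (0.57) and Cx3cr1 (0.40) were the other two, and Itgam (-0.23) was separated and lower. What share of the lysosomal difference macrophage content accounts for was not tested.

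**Figure D4:**
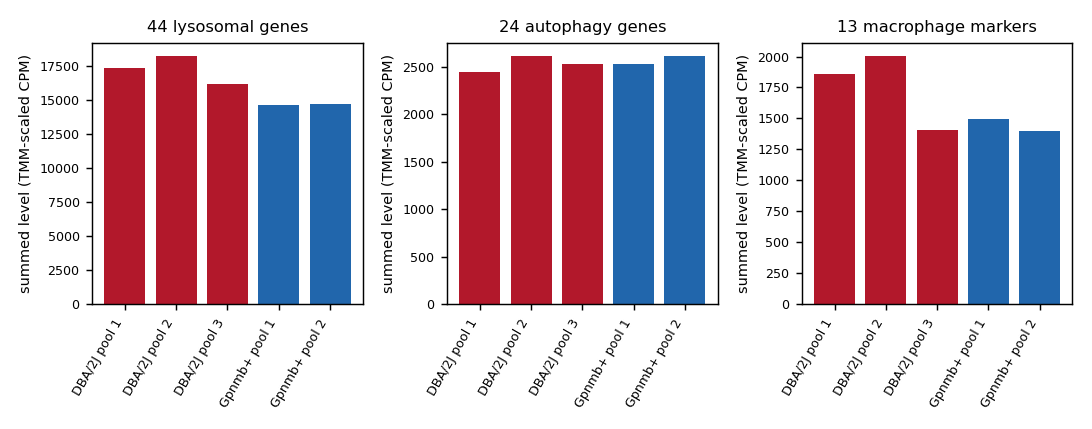
Summed CPM in each pool of the 44 lysosomal genes (left), 24 autophagy genes (middle) and 13 macrophage markers (right), on linear axes that start at 0, with DBA/2J pools in red and Gpnmb+ pools in blue. The lysosomal sum separates the strains, whereas the autophagy sum and the macrophage sum overlap. The DBA/2J mean differs from the Gpnmb+ mean by 18% (left), -1.43% (middle) and 21.5% (right).

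Markers of other tissues in the ring also varied between pools. Trabecular meshwork and angle markers summed to 6535, 5674 and 5968 CPM in DBA/2J and 4430 and 3657 CPM in Gpnmb+, without overlap, although 5 of 7 had log2 fold changes below 0. Fibroblast markers summed to 6219 to 6605 CPM against 6171 and 5607, and skeletal muscle markers to 267 to 641 CPM against 273 and 165. Pigment cell markers, corneal epithelium markers and markers of the nonpigmented ciliary epithelium had sums that overlapped between the strains. Their ranges were 3476 to 4576 against 3746 and 4383 CPM, 3934 to 6758 against 6583 and 8508 CPM, and 836 to 1063 against 497 and 851 CPM. Single markers in these lists differed more than the sums. In the ciliary epithelium list, whose sum is mostly Ptgds (406 to 716 CPM), 4 of 6 markers were separated and higher in DBA/2J, beside 17.3% of all genes. Of these 4, the transcription factor Six6 and the collagen gene Col9a1 were called (3.35-fold and 4.16-fold, adjusted p = 0.0265 and 0.0368 in the edgeR fit). The other two were Zic1 (3.15-fold, not called) and Six3 (1.64-fold, not called). Of the pigment cell markers Slc45a2 was called lower (log2 fold change -2.46, adjusted p = 0.0262 in the edgeR fit). The corneal keratin gene Krt12 had 254, 116 and 9.44 CPM against 1702 and 554, without a call (log2 fold change -3.16). The part of these tissues in the lysosomal values was not tested.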

How the data were processed

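RNA-seq of mouse iridocorneal angle was analysed in 3 DBA/2J and 2 Gpnmb+ pools. The authors trimmed 100 bp paired-end reads with fastp, aligned them to GRCm39 (Ensembl 110) with STAR and deposited raw counts of reads with a single alignment per gene, in 1 table without normalization. The labels call the columns normalized counts, but the values were whole numbers with unequal totals. No 2 libraries held identical values.

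GENCODE release 39 named 56323 of 56941 identifiers and gave positions and start sites. Genes reaching 10 counts in any 1 pool were tested with edgeR 4.0.16 in R 4.3.3 (quasi-likelihood test, TMM library sizes, no covariate, Benjamini-Hochberg adjustment over 19713 genes). CPM are counts scaled to TMM library sizes, and TPM are also scaled to the union of a gene's exons. Log2 ratios between pools used a pseudocount of 0.5. Alternatives were DESeq2 1.42.0, limma-voom (limma 3.58.1), DESeq2 size factors, library totals, the pool number as a replicate block, each pool left out in turn, filterByExpr and no filter on low counts. Counts at an unadjusted p-value without a fold minimum, DESeq2 and limma-voom counts without it, and sums without the 5 highest members were added after the data were seen. Tested on simulated data, with 200 of 19171 genes changed 3-fold, edgeR recovered 92.5% with 9 false calls. Smaller changes, such as those of the members (at most 1.45-fold), were not simulated, so recovery at that size is not known.

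All members could be named. Full statistics were given for the 8 members of smallest p, for Tfeb, Tfe3 and Grn and for Gpnmb, and of each other list the gene of smallest p was named, or those called. Further genes were named after their values were seen. The members and lists were chosen with earlier results of these data known. P-values measure the spread between pools, not between single mice. Proteomic data were not analysed here. Figures were made in Python 3.11.15 with matplotlib 3.10.9.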

Additional observations from a re-analysis of the deposited data

How the results depend on the processing

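Under 12 alternatives 35 of 44 members kept the sign of their log2 fold change, 31 of them above 0, and 18 of 528 values changed sign. The median member stayed between 0.16 and 0.21, and members above 0 numbered 35 to 40. No alternative called a member at a 1.5-fold change and an adjusted p-value up to 0.05. Without the fold minimum DESeq2's adjusted p-value passed 4 members. The 16 members with an unadjusted p-value up to 0.05 became 8 with library totals and 4 to 13 with 1 pool left out. With the 1.5-fold minimum, that count of 0 became 0 to 2 with 1 pool left out. Library totals gave 2 members with DBA/2J pools below both Gpnmb+ pools. Of the other lysosomal and autophagy genes DESeq2 called 1, beside 5.21% of the genes with a DESeq2 adjusted p-value.

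The pools of both strains carry the numbers 1 and 2, and nothing says that a number marks a shared litter or day. Deviations of same-numbered pools correlated at 0.279 and 0.254, over only 2 pairs. The deviations of the 2 Gpnmb+ pools from their own mean mirror each other. DBA/2J pool 1 against Gpnmb+ pool 2, and DBA/2J pool 2 against Gpnmb+ pool 1, therefore had to give -0.279 and -0.254. For that reason these values cannot show whether a number marks a shared litter or day. With the replicate number as a replicate block, 1 member passed an unadjusted p-value of 0.05 with the fold minimum. That rule passed 8.67% of all genes in the main fit, and the share under the block was not computed. Without the fold minimum 19 members were higher under the block, beside 9.25% of all genes. The smallest adjusted p of a member by edgeR with the block was 0.0593.

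The 9 members whose sign turned had log2 fold changes between -0.01 and 0.13. Under library totals Arsb became -0.03 and Npc2 -0.01, under the replicate block Ids became 0.01 and Arsb -0.01, and with no count filter Ids became 0.01. With 1 pool left out, the values ran for Ctsh from -0.06 to 0.16, for Ctsl from -0.01 to 0.28, for Fuca1 from -0.05 to 0.15, for Sgsh from -0.02 to 0.13, for Ids from -0.07 to 0.04. For Arsb they ran from -0.08 to 0.09, for Npc2 from -0.01 to 0.07, for Cln3 from -0.06 to 0.26, for Tfeb from -0.02 to 0.20. Leaving out Gpnmb+ pool 2 turned Ctsl, Sgsh, Ids, Arsb, Cln3 and Tfeb, and DBA/2J pool 2 turned Ctsh, Fuca1, Arsb and Npc2. Gpnmb+ pool 1 turned Fuca1, and DBA/2J pools 1 and 3 turned Ids. Without a Gpnmb+ pool, the library left is assumed to vary like the DBA/2J pools. Other than the smaller number of pools, the cause was not tested. With 3 pools against 2, a single value cannot reach an exact permutation p below 0.2, and pooled mice hide the variation between animals.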
